A study of Rattus norvegicus with 6 samples.

Results

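A set of 10 genes of endothelial adhesion and of the junctions between endothelial cells were examined in rat myocardium after ischemia. They were chosen by name, as the rows of the deposited table whose gene symbol was Sele, Selp, Icam1, Icam2, Vcam1, Pecam1, Cdh5, Cldn5, Tie1 or Tek. Of these 10 genes, 9 had a row among the 32623 genes of the table, and all 9 were among the 13964 genes tested. No row was named Pecam1, and that gene was not analysed here. The study sequenced total RNA of myocardial tissue from 3 sham rats and 3 rats with ischemia, all labelled as male and of wild-type genotype, with no strain or age in the labels. Ischemia was made by ligation of the left anterior descending coronary artery through a left thoracotomy under ventilation, and the labels give 30 min for both groups. No ligation is described for sham rats, and the ligated and spared parts of the ventricle are not told apart in the labels. The samples carry replicate numbers from 1 to 3 in each group, and p-values measure the spread between these samples.

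Endothelial cells line the vessels of the heart and hold together through junction proteins such as VE-cadherin, the product of Cdh5. At rest they carry few molecules that bind white blood cells, and inflammatory signals make them transcribe and expose the selectins, ICAM-1 and VCAM-1. Selectins slow leukocytes on the vessel wall, ICAM-1 and VCAM-1 arrest them by binding their integrins, and junction molecules control their passage, while the receptor Tie2 (Tek) and its relative Tie1 keep the vessel wall quiet and tight. Pecam1 is a junction molecule that is also used in leukocyte passage.

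Total counts per sample lay between 68529126 and 79591989, and 17076 to 18096 genes had at least 1 count. The 8 genes other than Cldn5 had between 159 and 25560 counts in a sample, which gives a counting error of 7.93% to 0.625% of the count. The libraries differed in ways the groups did not explain. The summed FPKM (read counts per length of gene and size of library) of 4 atrial genes (Myl7, Nppa, Myl4 and Sln) was 48341 in sham replicate 1, 215 in replicate 2 and 39203 in replicate 3, and in ischemia it was 9610, 2078 and 1279. Sham replicate 1 had 4 counts on 3 genes of chromosome Y, against 1762 to 4358 in the other libraries, which goes against its label as male. The lung airway gene Scgb1a1 reached 394 FPKM in ischemia replicate 1. The summed FPKM of 6 cardiomyocyte genes was 23463 to 31509 in sham and 8521 to 16314 in ischemia, so cardiac muscle RNA was present in each library.

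The first question was which of the adhesion and junction genes differed between ischemia and sham. By the edgeR quasi-likelihood test with Benjamini-Hochberg adjustment over all 13964 genes, 3 of the 9 were higher in ischemia at an adjusted p under 0.05, namely Sele, Selp and Icam1, and 0 were lower. Over all tested genes 6.71% passed, 5.18% higher and 1.53% lower. The 3 that rose encode surface molecules that endothelial cells make on inflammatory activation. The 4 genes of resting endothelium, Icam2, Cdh5, Tie1 and Tek, had log2 fold changes between -0.35 and 0.08 with a median of -0.14, and none of the 4 passed. The median log2 fold change of the 9 genes was 0.08, and that of all tested genes was -0.0015. In bulk tissue, fewer cells of a type and less RNA per cell cannot be told apart, and this holds for each value below.

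**Figure D1:**
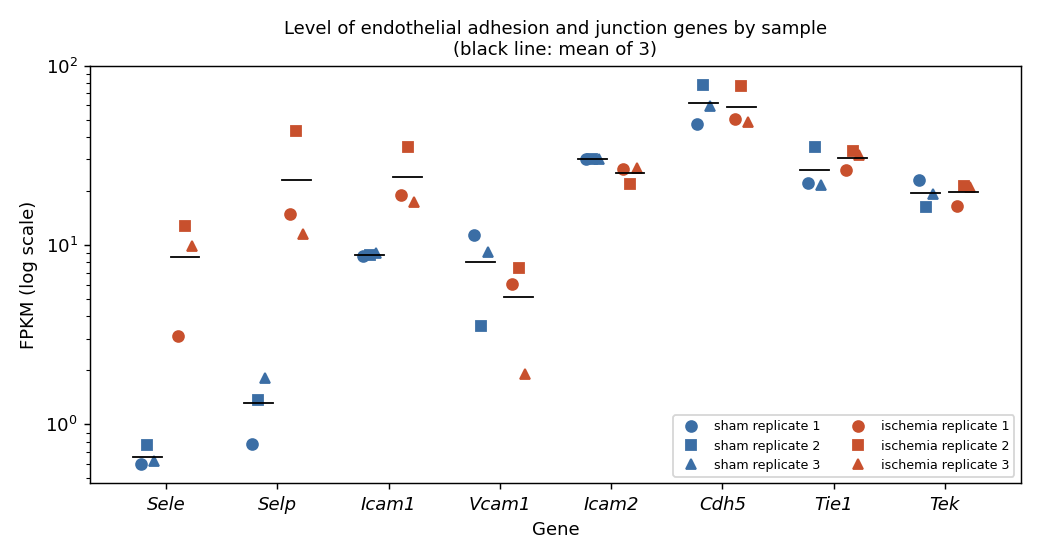
FPKM of 8 genes in each of the 6 samples on a log scale, with circles, squares and triangles for replicates 1, 2 and 3, blue for sham and red for ischemia, and black lines for the mean of 3. The ischemia values of Sele, Selp and Icam1 lie above the sham values, those of Icam2 lie below them, and the groups overlap for Vcam1, Cdh5, Tie1 and Tek.

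Sele (ENSRNOG00000002723, chr13:82355471-82365341 on the plus strand, in the table's coordinates, whose build is not given in the sources used here) encodes E-selectin, which is made almost only by activated endothelium. In replicates 1, 2 and 3 its FPKM was 0.599, 0.765 and 0.621 for sham rats and 3.13, 12.7 and 9.87 for rats with ischemia. The groups did not overlap, and ischemia replicate 1 was far lower than the other two ischemia samples. The mean rose from 0.662 ± 0.0899 to 8.57 ± 4.92 FPKM (SD, n = 3 each). The edgeR log2 fold change was 3.56 ± 0.55 (SE), which is 11.8-fold, with an edgeR adjusted p of 0.0311. Over the sham mean, the single ischemia samples were 4.73, 19.2 and 14.9 times as high. The call was lost without sham replicate 1, 2 or 3 (adjusted p of 0.159, 0.0820 and 0.131 in edgeR) and without ischemia replicate 3 (0.114), although the log2 fold change stayed between 3.24 and 3.95. In those 4 fits no gene of the table passed, while 3020 to 3809 genes had an unadjusted p under 0.05. DESeq2 on all 6 samples called 2071 genes higher and 1742 lower, with Sele, Selp and Icam1 among the higher. In limma on the log2(FPKM + 1) scale, which understates the change of low genes, Sele differed by 2.36 (limma adjusted p 0.0346).

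Selp (ENSRNOG00000002794, chr13:82429063-82464628, plus strand) encodes P-selectin, which endothelial cells and platelets store in granules and bring to the surface within minutes. FPKM was 0.774, 1.36 and 1.82 in the sham samples and 14.9, 43.0 and 11.6 in the ischemia samples. All 3 ischemia samples were above all sham samples, and replicate 2 was the highest of them. From 1.32 ± 0.525 in sham the mean went to 23.2 ± 17.3 FPKM in ischemia (SD, n = 3 each). That difference was 3.99 ± 0.60 on the log2 scale (SE), or 15.9-fold, with an edgeR adjusted p of 0.0304. Without ischemia replicate 2 it was 3.27 on the log2 scale and still passed (edgeR adjusted p 0.0305). With all 6 samples on the log2(FPKM + 1) scale, Selp differed by 3.18 (limma adjusted p 0.0246). Selp lost its call in edgeR without the same libraries as Sele, with adjusted p of 0.158, 0.0820 and 0.129 without sham replicate 1, 2 or 3 and of 0.110 without ischemia replicate 3. Of 8 platelet and megakaryocyte markers only 3 were abundant enough to test, and none of these passed. The summed FPKM of all 8 was 22.7 to 56.7 in sham and 63.8 to 174 in ischemia, nearly all of it from the platelet chemokine gene Pf4 (20.8 to 53.2 and 61.6 to 170). The part of platelets in the Selp level was not tested.

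Sele and Selp lie on the same strand of chromosome 13 within 109 kb, and the start of Selp lies 73592 bases from that of Sele. Selp was above Sele in each of the 6 samples. The ratio of Selp to Sele FPKM was 1.29, 1.78 and 2.93 in sham and 4.76, 3.39 and 1.17 in ischemia, so its ranges overlapped between the groups.

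Icam1 (ENSRNOG00000020679, chr8:22035256-22047059, plus strand) encodes the ligand of the leukocyte integrins that contain Itgb2 and is made by endothelium, by leukocytes and by other cells. In sham its FPKM was 8.65, 8.77 and 9.04, and in ischemia it was 19.0, 35.2 and 17.5. The sham samples were nearly equal in FPKM, and each ischemia sample was well above them. In TMM-scaled CPM, the scale of the test, sham was 22.9, 28.7 and 23.5 and ischemia 51.3, 87.1 and 49.1, so the sham samples were less alike there and the groups did not overlap either. Means were 8.82 ± 0.198 and 23.9 ± 9.83 FPKM (SD, n = 3 each). Icam1 rose by 1.32 ± 0.27 on the log2 scale (SE), or 2.50-fold, with an edgeR adjusted p of 0.0450, close to the threshold. Without an expression filter and under total-count scaling the adjusted p was 0.0541 and 0.0512, and without sham replicate 1, 2 or 3 or ischemia replicate 3 it was 0.171, 0.0899, 0.147 and 0.122. Without ischemia replicate 2, the highest sample, Icam1 still passed with a log2 fold change of 0.999 and an edgeR adjusted p of 0.0465.

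Taken as a list, markers of white blood cells were also higher in ischemia. Of 12 neutrophil and monocyte markers 8 were higher in ischemia by the edgeR test and 0 were lower, with a median log2 fold change of 5.41. Over all tested genes 5.18% were higher. Genes were tested where the mean FPKM over all 6 samples was at least 0.5. Mmp8, Csf3r, Cxcr2, Trem1 and Camp reached this only through their ischemia values, with sham means of 0.058 to 0.386. The count and the median thus rest in part on genes that entered the test by being high in ischemia. The largest differences were 7.63 for the neutrophil collagenase gene Mmp8 (edgeR adjusted p 0.0445), 6.91 for S100a8 (0.0311 in edgeR) and 6.72 for S100a9 (0.0366 in edgeR). The summed FPKM of the 12 markers was 20.8 to 28.4 in sham and 524, 3930 and 550 in ischemia replicates 1, 2 and 3. The neutrophil granule gene Camp had 0 counts in sham replicates 1 and 2, and the other 11 markers were detected in each library. Ischemia replicate 2 was the highest ischemia sample for Sele, Selp, Icam1 and the summed white cell markers alike. Ischemia replicates 1 and 3 had similar sums, while Sele was 3.13 and 9.87 FPKM in them and Selp was 14.9 and 11.6. The part of white blood cells in the level of Icam1 or of the selectins was not tested.

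Vcam1 (ENSRNOG00000014333, chr2:219071193-219097619, minus strand) encodes another inducible molecule, a ligand of Itga4-containing integrins that fibroblasts and mural cells also make. FPKM was 11.4, 3.52 and 9.18 in sham and 6.08, 7.40 and 1.92 in ischemia. Sham and ischemia overlapped, sham replicate 2 was the lowest sham sample and ischemia replicate 3 the lowest of all. Group means were 8.04 ± 4.07 and 5.13 ± 2.86 FPKM (SD, n = 3 each), and ischemia differed from sham by -0.71 ± 0.54 on the log2 scale (SE), at an edgeR adjusted p of 0.381. The difference was within the spread between rats. With sham replicate 2 as the only sham library, a setting chosen after seeing the data, it was 0.21. The summed FPKM of 6 fibroblast markers was 862, 449 and 1334 in sham and 539, 255 and 222 in ischemia, and that of 6 epicardial and mesothelial markers was 106, 48.3 and 75.6 in sham and 32.4, 6.06 and 5.09 in ischemia. In sham, Vcam1 and both sums were lowest in replicate 2. Among these markers Upk3b and Upk1b had 0 counts in ischemia replicate 2, Krt19 had 0 in ischemia replicate 3 and Calb2 had 0 in 4 libraries, and the part of such cells in the Vcam1 level was not tested.

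The promoters of Icam1 and Vcam1 are shown because the first of these inducible genes rose and the other did not pass the test. The windows run from 250 bases before to 50 bases after the start of the gene, 5′ to 3′ on the strand of the gene, as RefSeq gives them on the GRCr8 build (chr8:27829595-27829894 plus strand for Icam1 and chr2:206742734-206743033 minus strand for Vcam1). RefSeq entries were found for 5 of the 10 genes, Sele, Icam1, Vcam1, Cldn5 and Tie1. In the Sele window the listed start of the gene is an ATG, so it may not be a start of transcription, and that window was left out of what follows. Capitals mark matches, on either strand, to a looser form of the kappa B motif (GGNNNTTCC) and to the TATA motif (TATAAA).
Icam1: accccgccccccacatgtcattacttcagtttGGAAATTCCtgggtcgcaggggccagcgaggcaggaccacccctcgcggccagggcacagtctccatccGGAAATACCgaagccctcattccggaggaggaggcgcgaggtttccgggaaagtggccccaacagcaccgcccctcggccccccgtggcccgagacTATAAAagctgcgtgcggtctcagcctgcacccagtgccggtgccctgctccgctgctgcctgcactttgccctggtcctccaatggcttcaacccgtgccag
Vcam1: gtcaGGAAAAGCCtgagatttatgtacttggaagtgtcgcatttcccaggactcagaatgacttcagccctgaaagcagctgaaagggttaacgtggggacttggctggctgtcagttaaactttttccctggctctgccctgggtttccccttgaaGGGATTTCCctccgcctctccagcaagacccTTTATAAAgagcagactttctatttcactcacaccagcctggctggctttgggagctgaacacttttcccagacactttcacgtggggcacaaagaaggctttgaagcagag
A stricter kappa B form with a further G in front, held by 5.37% of 33469 rat promoters of the same length, and the AP-1 motif TGANTCA, held by 7.33%, were in none of the other 4 windows. The looser form was added after that search, covers every match of the stricter form, and is held by 18.3% of promoters. It was found in Icam1 at 218 and 149 bases before the start, in Vcam1 at 246 and 93 bases before it, and in Tie1 at 172. The first Icam1 match reads the same on both strands and counts once. TATAAA, held by 14.2% of promoters, lay 53 bases before the start in Icam1 and 60 in Vcam1, where a match on the other strand overlaps it at 62. AGGAAG, held by 34.5% of promoters and the core of Ets factor sites, lay on the other strand 61 bases before the start in Tie1. The GC content was 65.3% for Icam1 and 50.3% for Vcam1, against a median of 51.7% over all promoters. A match describes the letters of the window and no binding was measured here.

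Icam2 (ENSRNOG00000025143, chr10:94569890-94576512, minus strand) encodes ICAM-2, which resting endothelium carries at its junctions. FPKM was 30.1, 30.0 and 30.3 in sham and 26.4, 22.0 and 26.8 in ischemia. In FPKM all ischemia samples were below all sham samples, with means of 30.2 ± 0.126 and 25.1 ± 2.69 FPKM (SD, n = 3 each). The log2 fold change was -0.35 ± 0.20 (SE) and did not pass, with an edgeR adjusted p of 0.253. In CPM (counts scaled to library size, with TMM, the trimmed mean of M-values) the groups did not overlap for 4 of the 9 genes, 3 higher and 1 lower in ischemia, where 41.1% of all tested genes did not overlap, 22% higher and 19.1% lower. For single genes the two-sided exact permutation test of mean log2 CPM gave p = 0.1 for Sele, Selp, Icam1 and Icam2, the smallest p that 3 samples against 3 allow. Within the same family the ratio of Icam1 to Icam2 FPKM was 0.287, 0.292 and 0.298 in sham and 0.720, 1.60 and 0.650 in ischemia, without overlap.

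Cdh5 (ENSRNOG00000013324, chr19:1023683-1074365, minus strand) encodes VE-cadherin, the adhesion protein of endothelial adherens junctions. Its FPKM was 47.5, 78.4 and 59.7 in sham and 50.6, 77.2 and 48.7 in ischemia. Sham and ischemia overlapped almost fully, and replicate 2 was the highest sample in each of them. Means were 61.9 ± 15.6 and 58.8 ± 15.9 FPKM (SD, n = 3 each), with a log2 fold change of -0.21 ± 0.32 (SE) and an edgeR adjusted p of 0.665. Without sham replicate 2 the log2 fold change was 0.13. Sham replicate 2 was also the sham library with the lowest atrial sum given above, and the part of this in the Cdh5 level was not tested.

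Tie1 (ENSRNOG00000020173, chr5:137294544-137321121, minus strand) encodes a receptor without a well-defined ligand that pairs with Tie2. FPKM was 22.1, 35.0 and 21.7 in sham and 26.3, 33.4 and 31.7 in ischemia. Sham replicate 2 was the highest of the 6 samples and the groups overlapped. Means were 26.3 ± 7.58 and 30.5 ± 3.71 FPKM (SD, n = 3 each), with a log2 fold change of 0.08 ± 0.32 (SE) that did not pass (edgeR adjusted p 0.877). Its sign turned without sham replicate 1 (-0.08) or sham replicate 3 (-0.10). Tek (ENSRNOG00000008587, chr5:113725717-113852799, plus strand) encodes Tie2, the receptor of the angiopoietins. FPKM was 22.9, 16.3 and 19.3 in sham and 16.4, 21.4 and 21.1 in ischemia, again overlapping. Means were 19.5 ± 3.31 and 19.6 ± 2.79 FPKM (SD, n = 3 each), with a log2 fold change of -0.07 ± 0.18 (SE) and an edgeR adjusted p of 0.812. The sign of this small value turned under total-count scaling (0.014). The ratio of Tie1 to Tek FPKM was 0.962, 2.14 and 1.13 in sham and 1.60, 1.56 and 1.50 in ischemia, so the ischemia samples were close together inside the range of the sham samples.

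**Figure D2:**
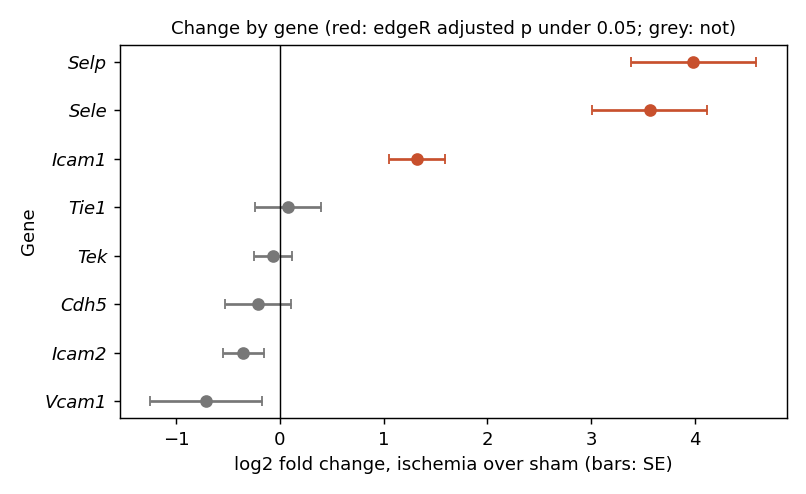
The log2 fold change of 8 genes in ischemia over sham from edgeR (points, with SE as bars), red where the adjusted p was under 0.05 and grey otherwise. Selp, Sele and Icam1 lie at 3.99, 3.56 and 1.32, and the others lie between -0.71 and 0.08 with bars near or across 0.

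Cldn5 (ENSRNOG00000045811, chr11:86356294-86357718, minus strand) encodes claudin-5, the main claudin of endothelial tight junctions. Sham replicates 1, 2 and 3 had 0, 360 and 0 counts of it, and the ischemia replicates had 2669, 0 and 0. FPKM was 3.11 in sham replicate 2 and 22.7 in ischemia replicate 1, and the table lists 0.0001 in the other 4 samples. Such a pattern, with many counts in a single library of a group and none in the others, is not a spread that a group mean describes, and the log2 fold change of 2.59 ± 3.10 (SE) had an edgeR adjusted p of 0.582. Without ischemia replicate 1 it was -10.05. In the 4 libraries with 0 counts, a count of 0 allows up to 3 counts, or 0.0374 to 0.0450 CPM, for counting error only.

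The gene lies inside Cdc45 (chr11:86329012-86358453), a DNA replication gene on the plus strand. Cdc45 had 2761, 2356 and 2582 counts in sham and 209, 4665 and 1666 counts in ischemia. It was lowest in ischemia replicate 1, the library in which Cldn5 was highest. The sum of both genes was 2761, 2716 and 2582 counts in sham and 2878, 4665 and 1666 in ischemia. Summed into 1 row, they had a log2 fold change of 0.07 with an edgeR adjusted p of 0.887, a setting chosen after seeing the data. The kit keeps strand, but the strand setting of the counting is not given in the sources used here, so reads of the 2 genes cannot be told apart and no level of claudin-5 mRNA is drawn from these values. Such a jump, from 0 counts to 100 or more between libraries of a group, was found for 186 of the tested genes and for 1 of the genes examined here, Cldn5.

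**Figure D3:**
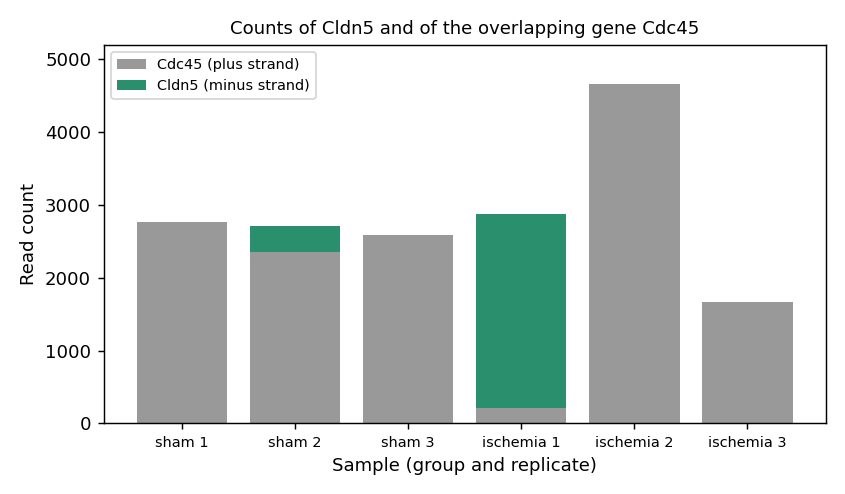
Read counts of Cldn5 (green) stacked on those of Cdc45 (grey), which overlaps it on the other strand, in each of the 6 samples. Cldn5 has counts in sham replicate 2 (360) and ischemia replicate 1 (2669), and the summed bar of ischemia replicate 1 (2878) is close to those of the 3 sham samples (2582 to 2761).

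Levels between genes were then ordered by mean FPKM, which is scaled by gene length. Cldn5 was left out of the order, for the reasons given with its counts. In sham Cdh5 was highest, and its samples did not overlap those of any other gene. Icam2, Tie1 and Tek followed, with neighbours that overlapped. Icam1 and Vcam1 overlapped each other and lay below Tek without overlap. Selp came next and Sele last, and the ranges of Vcam1, Selp and Sele did not overlap, although the lowest Selp sample (0.774) was close to the highest Sele sample (0.765). In ischemia Cdh5 was again highest without overlap, followed by Tie1, Icam2, Icam1, Selp and Tek, whose neighbours all overlapped. Icam1 and Selp thus lay among the genes of resting endothelium in ischemia. Sele and Vcam1 came last, overlapped each other and lay below Tek without overlap, while the highest Sele sample (12.7) was above the lowest Selp sample (11.6). The coefficient of variation in sham depended on the scaling. In FPKM it was 0.417% for Icam2, 2.24% for Icam1 and 13.6% for Sele, and in the TMM-scaled CPM of the test it was 12.9%, 12.8% and 27.3%. For Icam2 the counting error alone is 1.78%, above the spread in FPKM. In ischemia it was 10.7%, 41.1% and 57.4% in FPKM and 16.7%, 34.1% and 54.7% in CPM.

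To compare the inducible genes with an endothelial gene of the same library, each count was set against that of Cdh5, a ratio that does not depend on how libraries are scaled. Per 100 Cdh5 counts, sham replicates 1, 2 and 3 had 1.11, 0.853 and 0.912 counts of Sele and the ischemia replicates had 5.41, 14.4 and 17.7. The log2 ratio differed by 3.54, or 11.7-fold. Selp had 1.30, 1.38 and 2.42 counts per 100 in sham and 23.3, 44.1 and 18.8 in ischemia, a difference of 4.04 in the log2 ratio, or 16.4-fold. Icam1 had 12.0, 7.34 and 9.94 in sham and 24.7, 30.0 and 23.5 in ischemia, a difference of 1.44, or 2.71-fold. All 3 ratios separated the groups, as these genes also did in CPM, where 41.1% of all tested genes did not overlap. The share of all genes whose ratio to Cdh5 separates the groups was not computed. Vcam1 had 24.0, 4.48 and 15.3 in sham and 12.0, 9.55 and 3.93 in ischemia, and its ranges overlapped. Exact two-sided permutation tests gave p = 0.1 for Sele, Selp and Icam1, the smallest p possible, and 0.5 for Vcam1. Adjusted by Benjamini-Hochberg over these 4 ratios, the exact permutation p-values were 0.133 for the first 3 and 0.5 for Vcam1, so none passed. With Tie1 as the denominator the difference was 3.23 for Sele, 3.72 for Selp, 1.12 for Icam1 and -0.94 for Vcam1.

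**Figure D4:**
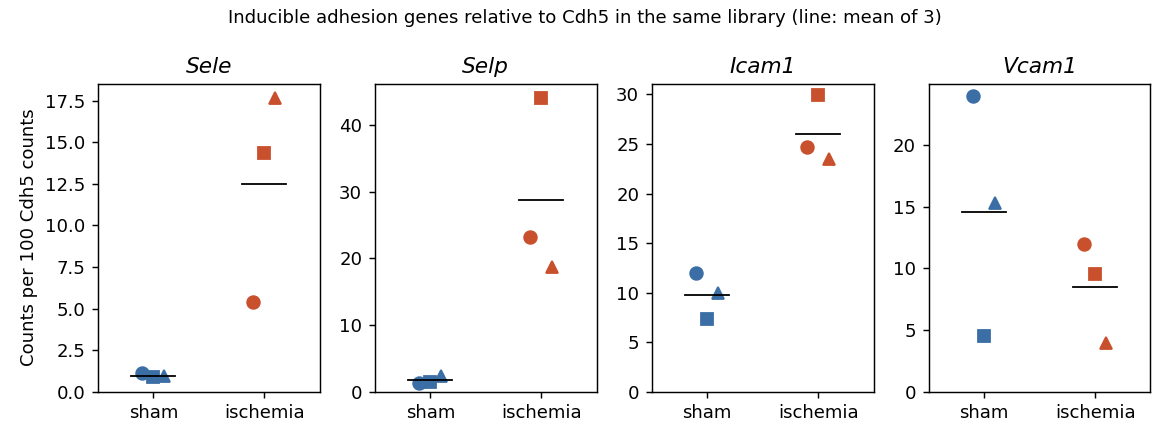
Counts of Sele, Selp, Icam1 and Vcam1 per 100 Cdh5 counts in the same library, with a linear axis from 0 in each panel, circles, squares and triangles for replicates 1, 2 and 3, and a line for the mean of 3. The ischemia samples are above the sham samples for Sele (5.41 to 17.7 against 0.853 to 1.11), Selp and Icam1. For Vcam1 the groups overlap, with ischemia replicate 3 (3.93) below the lowest sham sample (4.48).

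The partners of the adhesion molecules on white cells were examined as a list of 9 genes. Of the 8 tested, 4 were higher in ischemia, 0 were lower, and the median log2 fold change was 2.51. Over all tested genes 5.18% were higher. Itgb2 and Itgam, subunits of an integrin that binds ICAM-1, were higher by 4.16 and 4.03 (adjusted p 0.0272 for each in edgeR). Itgb7 and Itgb1, beta subunits that can pair with Itga4, were higher by 3.87 and 1.62 (edgeR adjusted p 0.0405 and 0.0478). Selplg, which encodes the main ligand of P-selectin, had 2.47 and did not pass (edgeR adjusted p 0.0553). Cd44, another selectin ligand, had 2.56 and did not pass either (edgeR adjusted p 0.0510). Glg1, a ligand of E-selectin, had -0.38 (edgeR adjusted p 0.278), and Itgal, a subunit of another integrin that binds ICAM-1, had 1.31 (edgeR adjusted p 0.164), with overlapping groups for both. Itga4, a subunit of the VCAM-1 receptor, was too low to test, with 0.0583 to 0.112 FPKM in sham and 0.309 to 1.46 in ischemia. The summed FPKM of the list was 101 to 163 in sham and 268 to 737 in ischemia, most of it from Itgb1 (66.8 to 116 and 173 to 383), which many cell types make.

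Among 18 other genes of endothelial and tight junctions, 16 were tested and none passed in either direction, with a median log2 fold change of -0.20. The largest differences were those of Cgn, which encodes the tight junction protein cingulin, at -4.36 (edgeR adjusted p 0.0974), Esam, an endothelial adhesion molecule, at 1.13 (adjusted p 0.0674 in edgeR), and Jam2, a junctional adhesion molecule, at -1.06 (edgeR adjusted p 0.118). Cgn had 815, 277 and 745 counts in sham and 80, 0 and 15 in ischemia, and in sham it was lowest in replicate 2, as the epicardial and mesothelial sum was. Esam FPKM was 27.2, 35.1 and 28.8 in sham and 50.8, 99.5 and 67.7 in ischemia, without overlap. The summed FPKM of the list was 376 to 473 in sham and 431 to 469 in ischemia.

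Of 12 genes of the angiopoietin and Tie pathway, 10 were tested, 1 was higher and 0 were lower, with a median log2 fold change of 0.29. Over all tested genes 6.71% passed in either direction, so a single call says little about the list as a whole. The gene that rose was Dok2, an adaptor that binds Tie2 and is also abundant in white blood cells, with 2.33 (edgeR adjusted p 0.0394). Angpt1, the activating ligand of Tie2, had -1.66 (edgeR adjusted p 0.182), and Grb14, an adaptor of receptor kinases, had -1.27 (adjusted p 0.0951 in edgeR). Angpt2, a ligand that endothelial cells store and that can oppose Angpt1, had FPKM of 5.76, 4.28 and 8.66 in sham and 5.14, 35.8 and 5.91 in ischemia. Only ischemia replicate 2 was above the sham range, and the edgeR adjusted p was 0.294. The ratio of Angpt2 to Angpt1 FPKM was 1.21, 3.58 and 3.24 in sham and 2.72, 70.8 and 15.7 in ischemia, with overlap through ischemia replicate 1.

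As a measure of endothelial RNA in the tissue, 18 other endothelial genes were examined. All 18 were tested, none passed, and the median log2 fold change was 0.40. The summed FPKM was 472 to 555 in sham and 562 to 648 in ischemia. The largest differences were those of Cd34 at -1.56 (edgeR adjusted p 0.0510), Mcam at 0.85 (edgeR adjusted p 0.200) and Nos3, the endothelial nitric oxide synthase, at 0.85 (adjusted p 0.122 in edgeR). Cd34, which fibroblasts and progenitor cells also make, was lower in all 3 ischemia samples, with 71.7, 67.8 and 66.8 FPKM in sham and 35.9, 15.1 and 22.8 in ischemia. Robo4 had 0 counts in ischemia replicate 1. Of 6 markers of endocardial and lymphatic endothelium 1 was higher, Pdpn at 2.31 (edgeR adjusted p 0.0430), and 0 were lower, with a median log2 fold change of -0.37. The endocardial gene Npr3 had -3.06 (edgeR adjusted p 0.105) and the lymphatic regulator Prox1 had -1.54 (edgeR adjusted p 0.0656). Their summed FPKM was 94.2 to 134 in sham and 120 to 186 in ischemia, where Pdpn alone reached 129 in replicate 2. Of 8 mural cell markers 0 were higher and 1 was lower, Abcc9 at -1.34 (edgeR adjusted p 0.0352). Their summed FPKM was 248, 216 and 623 in sham replicates 1, 2 and 3 and 217, 105 and 135 in the ischemia replicates. Over all tested genes 6.71% passed in either direction, so a single call says little about the mural list or the endocardial and lymphatic list. The smooth muscle genes Myh11 and Acta2 had -2.15 and -1.78 and did not pass (edgeR adjusted p 0.195 and 0.205). Both were highest in sham replicate 3, with 54.3 and 423 FPKM against at most 12.4 and 97.3 in any other library. Cspg4 went the other way with 0.81 (edgeR adjusted p 0.235).

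**Figure D5:**
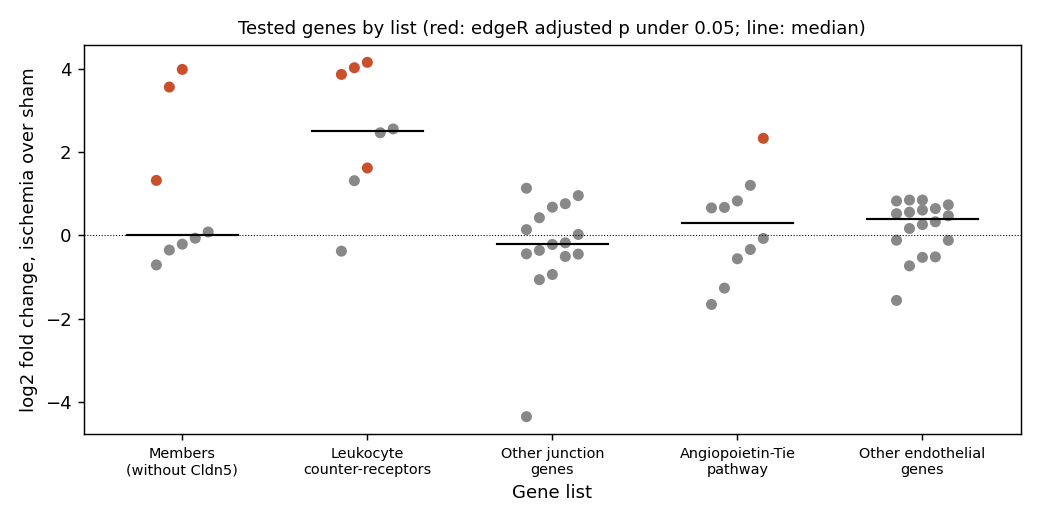
The log2 fold change of each tested gene in 5 lists, as points, red where the edgeR adjusted p was under 0.05 and grey otherwise, with a line for the median of each list (the first list is shown without Cldn5). Red points number 3 among the adhesion and junction genes, 4 among the leukocyte counter-receptors, 1 in the angiopoietin-Tie pathway and 0 in the other lists.

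The genes whose pattern over the 6 samples was most like that of Sele were Pvr, Lyc2, Ccl9, Map3k6 and Cdca7. Likeness was the root mean square difference of log2 CPM after centring each gene on its mean, and it was 0.158, 0.179, 0.285, 0.309 and 0.358 for these genes. For Cdh5 they were Sh3glb1, Higd1a, Fnbp1, Kcnj8 and Spata13, with 0.117, 0.121, 0.128, 0.130 and 0.132.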

How the data were processed

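Myocardial total RNA of 3 sham and 3 ischemia rats was sequenced by the authors with a TruSeq Stranded Total RNA kit. The submitters' processing notes name STAR and HTSeq without versions. The genome build and the strand setting of counting are not given in the sources used here. The authors deposited 1 table with raw read counts and FPKM values per gene and sample, where FPKM is set to 0.0001 for genes without counts. It holds no columns of the authors' own comparisons and no unused per-sample columns.

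The 13964 genes of 32623 whose FPKM averaged 0.5 or more were tested with the edgeR quasi-likelihood test on the deposited counts, with TMM scaling, no covariate, two-sided p-values and Benjamini-Hochberg adjustment over all tested genes at a threshold of 0.05. The SE was derived from the F statistic. Single values were compared with exact permutation tests, and ratios used counts plus 0.5. Samples were grouped by their labels.

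The genes examined and the lists were chosen with earlier results of these data known, so their calls are no independent support. By a fixed rule the text names, from the lists of counter-receptors, junction genes, angiopoietin-Tie genes and endothelial genes, the 3 tested genes with the largest log2 fold change in size and each gene past the threshold. From the white cell, endocardial and lymphatic, and mural marker lists the 3 largest and Abcc9 are named. Outside that rule, Selplg, Cd44, Glg1, Itgal, Itga4, Angpt2, Robo4, Camp, Csf3r, Cxcr2, Trem1, Pf4, Itga2b, Treml1, Cspg4, Scgb1a1, Upk3b, Upk1b, Krt19, Calb2 and the genes of chromosome Y were chosen after their values were seen. The counter-receptor list was set up with 1 further gene, which is not reported here and is in none of the list's counts, medians or sums. Cell type lists were described by counts and summed FPKM. Besides those in the report, 7 lung epithelial genes summed to 5.05 to 20.5 FPKM in sham and 3.16 to 417 in ischemia, of which 4 were tested and none passed, and none of 6 fibroblast, 5 tested epicardial and mesothelial, 6 cardiomyocyte or 4 atrial genes passed.

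Alternatives were limma on log2(FPKM + 0.1), + 1 and + 0.01, no filter, a filter at an average FPKM of 5, DESeq2, 4 other ways of scaling, a replicate block and each sample left out. Software was Python 3.11.15 with matplotlib 3.10.9 for the drawings and R 4.3.3 with DESeq2 1.42.0, limma 3.58.1 and edgeR 4.0.16 for the tests. Total counts were 68529126 to 79591989, and after TMM scaling 3 counts correspond to 0.0371 to 0.0459 CPM per library.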

Additional observations from a re-analysis of the deposited data

How the results depend on the processing

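Under limma on FPKM with 3 pseudocounts, median-ratio and upper-quartile scaling, removal of the mitochondrial genome and DESeq2, Sele, Selp and Icam1 passed, and no gene examined here was called lower under any setting. Without a filter and with total-count scaling Icam1 did not pass (log2 fold change 1.33 and 1.44), and 93 and 83 genes of the table were lower against 214. Sele was below the filter of a mean FPKM of at least 5. DESeq2 called 2071 genes higher and 1742 lower. Without sham replicates 1 and 3, a setting chosen after seeing the data that leaves 1 sham library, assumed to vary like the ischemia samples, 0 genes were higher and 0 lower over the table and among the genes examined, with 1707 at an unadjusted p under 0.05, and the log2 fold change was 3.17 for Sele, 3.74 for Selp, 1.12 for Icam1, 0.21 for Vcam1 and -0.50 for Tie1.

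Leaving out each sample in turn gave 0 to 1490 higher and 0 to 1115 lower genes over the table and 0 to 3 of the genes examined. The log2 fold change ran from 3.24 to 3.95 for Sele, from 3.27 to 4.28 for Selp, from 0.999 to 1.47 for Icam1, from -1.02 to -0.34 for Vcam1, from -0.41 to 0.13 for Cdh5 (0.13 without sham replicate 2), from -10.05 to 12.71 for Cldn5 (-10.05 without ischemia replicate 1), from -0.10 to 0.49 for Tie1 (-0.08 and -0.10 without sham replicates 1 and 3) and from -0.17 to 0.026 for Tek (0.011 without sham replicate 1, 0.026 without ischemia replicate 1). Tek was also above 0 with limma (0.014, 0.013 and 0.014) and total-count scaling (0.014). No cause of these changes was tested.

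The labels do not say whether samples with the same replicate number were paired. Correlations of deviations were -0.05, -0.07 and -0.18 for same-numbered samples and -0.05 to 0.18 for others. So few correlations cannot decide whether the samples were paired. With the replicate block 0 genes were higher and 0 lower in edgeR over the table and among the genes examined, with 3349 of the table at an unadjusted p under 0.05, and the log2 fold change was 3.39 for Sele, 3.89 for Selp and 1.28 for Icam1. The ratios to Cdh5 kept their direction in all 10 alternatives, that of Vcam1 between -1.32 (without sham replicate 2) and -0.11 (without sham replicate 1) in log2, with an exact permutation p of 0.25 for Sele, Selp and Icam1 in the block, the smallest it allows. The planned Pecam1 denominator was not run. At 3 samples a group, the exact permutation test cannot go below 0.1.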
